A study of Mus musculus with 12 samples.

Results

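Mutations in a group of unrelated genes cause the neuronal ceroid lipofuscinoses (NCLs), inherited storage diseases of childhood and adult life in which autofluorescent material fills lysosomes and neurons are lost. The 9 genes described here, *Tpp1*, *Ppt1*, *Cln3*, *Mfsd8*, *Atp13a2*, *Cln6*, *Cln8*, *Dnajc5* and *Kctd7*, were chosen by symbol from that group, and all 9 were found among the 52459 genes of each count table. Other NCL genes were not analysed here, except for 2 cathepsin genes taken up among the lysosomal peptidases. Poly(A)-selected RNA was sequenced from the cerebellum (Cb) and the forebrain/midbrain (F/M) of *Tpp1*-/- mice (T), in which the gene was disrupted by gene targeting in every cell, and of wild-type brothers (N) from the same heterozygous crosses. All mice were males 4 months old, and each of the groups F/M-N, F/M-T, Cb-N and Cb-T held 3 libraries, 12 in all. The study's methods give both tissues as taken from the same 3 mice of each genotype, and the labels number the libraries within a group but tie no library to a mouse. Every test treats the libraries as independent and measures the spread between them, also where the tissues, which share mice, are compared. The targeted gene is itself a member, so its fall is a check of the labels, and the other 8 members carry no engineered change in any group.

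The proteins of these genes differ in place and in function. TPP1 and PPT1 are soluble lysosomal enzymes: the first removes tripeptides from the amino end of peptides, and the second takes fatty acids off palmitoylated proteins. CLN3, MFSD8 and ATP13A2 sit in the endolysosomal membrane, CLN6 and CLN8 act in the endoplasmic reticulum where newly made lysosomal enzymes are handed on to the Golgi, DNAJC5 is the synaptic vesicle chaperone CSP-alpha, and KCTD7 is an adaptor of the cullin 3 ubiquitin ligase.

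The members lie on 7 chromosomes of the GRCm38 build. *Tpp1* (chr7:105744811-105752235) and *Cln3* (chr7:126571207-126585817) share the minus strand of chromosome 7, with 20.8 Mb between them. *Ppt1* (chr4:122836242-122859175) and *Atp13a2* (chr4:140986873-141007330) share the plus strand of chromosome 4. *Mfsd8* is at chr3:40818103-40846886 on the minus strand, *Cln6* at chr9:62838785-62852006, *Cln8* at chr8:14881335-14901720, *Dnajc5* at chr2:181520485-181555133 and *Kctd7* at chr5:130144861-130155806, all 4 on the plus strand. Exons of 4 members overlap a gene on the opposite strand. *Ppt1* shares 129 bases (3.51% of its exons) with *Cap1*, *Cln3* shares 442 bases (7.65%) with *Apobr*, *Mfsd8* shares 67 bases (0.712%) with *Gm2011*, and *Cln6* shares 181 bases (7.44%) with *Gm10653*. *Cap1* was itself abundant at 2389 to 5537 counts per library, whereas *Apobr* had 13 to 52, *Gm2011* 63 to 97 and *Gm10653* at most 1. The strand setting used in counting is not given in the sources used here, so reads within these shared bases cannot be assigned to 1 of the genes.

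Many lysosomal genes carry near their start a short palindrome, the CLEAR element, to which TFEB and the related MiT/TFE transcription factors bind. RefSeq start sites of GRCm38.p6 were found for 7 of the 9 members, with 8 starts in all, since *Cln3* has a pair. *Cln8* and *Dnajc5* have none in the table. Windows of 300 bases, 250 before and 50 after each start, were searched on both strands for TCACGTG, the core of that element with 1 flanking base, and for the looser TCANGTG, which includes every match of the first. TCACGTG was in 3.77% of all 32851 windows and in 1 member, *Cln3*, at 149, 122 and 121 bases before the downstream start. TCANGTG was in 14.3% of windows and in 3 members, *Cln3*, *Ppt1* and *Tpp1*. In *Tpp1* TCANGTG begins at bases 5 and 18 of the first exon, once on each strand, and in *Ppt1* at base 14 from the RefSeq start. That start lies upstream of the *Ppt1* start given above, and the match begins before the latter. The *Cln3* matches fall inside the gene, downstream of its other start. The stretches around these matches are shown because they are the only members' windows with a match. Each is read 5′ to 3′ on the strand of its gene, with the matched bases in capitals, where the *Cln3* stretch (chr7:126583340-126583369, minus strand) holds the overlapping pair of matches nearest to the start, and the others are *Tpp1* (chr7:105752206-105752235, minus strand) and *Ppt1* (chr4:122836227-122836256, plus strand):
Cln3: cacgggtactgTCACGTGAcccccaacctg
Tpp1: atgcTCATGTGacttatCACATGActacag
Ppt1: acagtccccgcggTCATGTGattgctaaga

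Depth was similar across the series. Total counts per library ran from 21428379 to 24458189, so that 3 counts corresponded to 0.122 to 0.139 CPM (counts scaled to a common library size), far below every member. Levels are given as CPM after TMM normalization of the 12 libraries together. Fold changes use each comparison's own TMM factors, which in F/M put T 0.039 higher against N on the log2 scale than these levels do. Gene tests are edgeR quasi-likelihood tests across all genes that passed the filter on low counts, which all 9 members did in each comparison, with Benjamini-Hochberg adjusted p-values (FDR) taken over every gene tested. A DEG is a gene that changed by 1.5-fold or more with an FDR below 0.1, and calls on the FDR alone are also counted. All libraries of a group carried the markers of their tissue. The summed level of 7 granule cell genes was 4948 to 5887 CPM in Cb and 103 to 112 CPM in F/M, and that of 7 forebrain genes was 394 to 411 CPM in F/M-N, 356 to 361 CPM in F/M-T and 8.41 to 10.5 CPM in Cb. The genotypes differed in cell markers too, which were read from lists of genes. Microglial genes (14 listed) summed to 169 to 183 CPM in Cb-N, 626 to 647 CPM in Cb-T, 485 to 505 CPM in F/M-N and 747 to 764 CPM in F/M-T, astrocyte genes (8 listed) to 4355 to 4408 CPM in Cb-N and 6192 to 6266 CPM in Cb-T, and oligodendrocyte genes (8 listed) to 4594 to 4710 CPM in Cb-N and 6110 to 6139 CPM in Cb-T. In Cb all 14 microglial, 7 of 8 astrocyte and all 8 oligodendrocyte genes passed FDR below 0.1 as higher in T, and in F/M 12 of 14, 8 of 8 and 1 of 8 did, where 29.8% of all tested genes were called higher in Cb and 12.8% in F/M. The astrocyte sum was 4723 to 5026 CPM in F/M-N and 5493 to 5887 CPM in F/M-T. Genes of the cerebellar neurons were lower in Cb-T. The granule cell genes summed to 5792 to 5887 CPM in Cb-N and 4948 to 5046 CPM in Cb-T, with 6 of 7 called lower, and the 6 listed Purkinje cell genes to 7972 to 8169 CPM in Cb-N and 6731 to 6879 CPM in Cb-T, with 5 of 6 called lower, beside 27.9% of all tested genes. Summed markers of forebrain and of neurons were lower in F/M-T. The forebrain sums did not overlap between the genotypes, with 4 of 7 genes called lower (14.4% of all tested genes) and 1 higher, and 8 genes of neurons in general summed to 6241 to 6345 CPM in F/M-N and 5855 to 6035 CPM in F/M-T, with 2 of 8 called lower. The 10 listed hindbrain and spinal *Hox* genes summed to 0.185 to 0.411 CPM in Cb-N and 11.3 to 12.1 CPM in Cb-T, with *Hoxb5*, *Hoxc4*, *Hoxc5*, *Hoxb6* and *Hoxd4* at 0 counts in every Cb-N library, and 2 olfactory bulb genes to 4.85 to 5.62 CPM in F/M-N and 0.248 to 0.597 CPM in F/M-T.

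The first question was how strongly each member is expressed in the normal brain. Levels of different genes were compared per kilobase of exon (RPKM). *Dnajc5* was the most abundant member in both control tissues, at 66.1 ± 1.20 RPKM (SD, n = 3) in F/M-N and 60.0 ± 0.93 RPKM in Cb-N. *Ppt1* came next, at 32.0 ± 0.35 RPKM in F/M-N and 38.0 ± 0.57 RPKM in Cb-N. *Atp13a2* (26.4 ± 1.34 RPKM) stood above *Tpp1* (17.5 ± 0.72 RPKM) in F/M-N, and the order of this pair was the opposite in Cb-N, where *Tpp1* was at 21.7 ± 0.24 RPKM and *Atp13a2* at 19.4 ± 0.19 RPKM. None of these 4 overlapped its neighbour in the order in either control group. The other 5 were far lower. In F/M-N *Cln6* was at 5.08 ± 0.55 RPKM, *Kctd7* at 4.31 ± 0.22, *Cln8* at 4.23 ± 0.14, *Cln3* at 2.36 ± 0.12 and *Mfsd8* at 2.08 ± 0.092 RPKM. The libraries of *Cln6* overlapped those of *Kctd7*, and those of *Kctd7* overlapped those of *Cln8*, whereas every *Cln6* library was above every *Cln8* library, so that the place of *Kctd7* between this pair was not resolved in F/M-N. In Cb-N the same order held without overlap, from *Cln6* at 5.11 ± 0.24 RPKM down to *Mfsd8* at 1.90 ± 0.018 RPKM. The order of the lower members depends on the length used: with the longest annotated transcript in place of all exons, *Mfsd8* moved from rank 9 to rank 6 in both control groups, at 5.58 RPKM in F/M-N, whereas the first 5 kept their ranks.

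**Figure D1:**
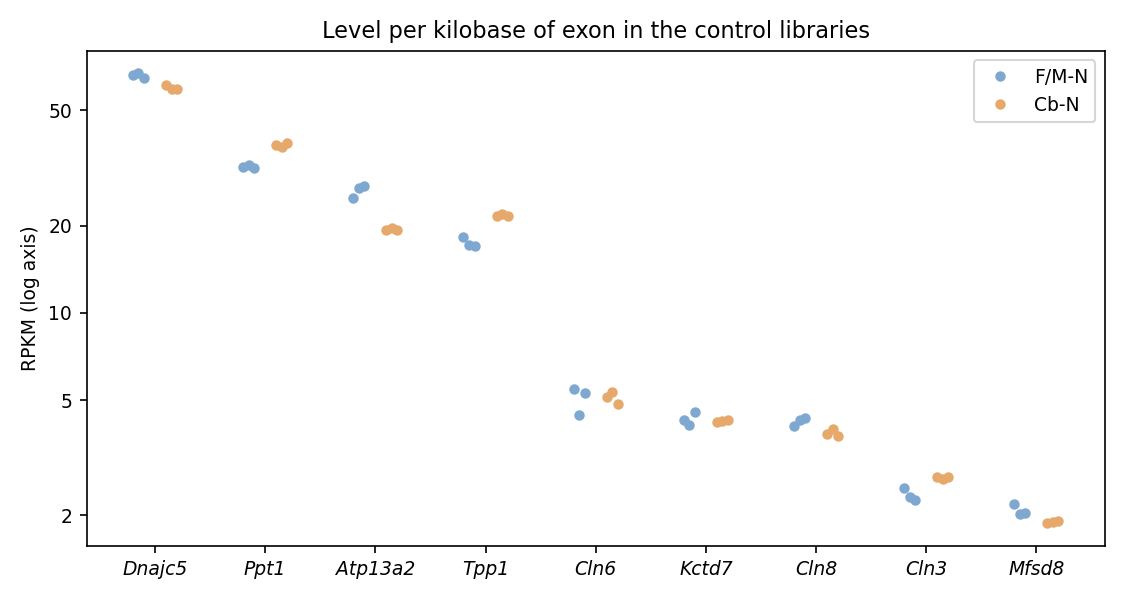
RPKM of the 9 genes (log axis) in the 3 F/M-N and the 3 Cb-N libraries, 1 point per library, ordered by the F/M-N mean. *Dnajc5*, *Ppt1*, *Atp13a2* and *Tpp1* lie at 17.06 RPKM or more in every control library and the other 5 at 5.48 RPKM or less.

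Between the control tissues, 7 of the 9 members differed at FDR below 0.1, as did 80.5% of the 16725 genes tested, with 3 higher in Cb (40.3% of tested genes) and 4 lower (40.1%). By edgeR, DESeq2 and limma-voom 0 members were DEG, against 42.0% of tested genes in the edgeR test, and 6 had an unadjusted p under 0.05, as did 77.8% of tested genes. The median size of the difference was 0.13 on the log2 scale over the members without *Tpp1* and 0.46 over all tested genes. *Atp13a2*, a P5-type transport ATPase that exports polyamines from lysosomes, differed most. It was at 149, 162 and 164 CPM in F/M-N and at 116, 118 and 116 CPM in Cb-N. The groups did not overlap, and Cb-N held 73.8% of the F/M-N level (log2 difference -0.44, SE 0.037, FDR = 7.96e-10). The soluble enzymes went the other way. *Tpp1* was at 94.7, 88.5 and 88.1 CPM in F/M-N and at 111, 114 and 112 CPM in Cb-N, 1.25-fold higher in Cb (log2 difference 0.32, SE 0.036, FDR = 8.01e-08). *Ppt1* was at 118, 119 and 116 CPM in F/M-N and at 139, 138 and 142 CPM in Cb-N, 1.19-fold higher (log2 difference 0.25, SE 0.032, FDR = 3.54e-07). Every Cb-N library was above every F/M-N library for both enzymes.

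The remaining differences between the control tissues were smaller. *Cln3* was 1.15-fold higher in Cb-N (FDR = 0.0144), and *Dnajc5* (91.2% of the F/M-N level, FDR = 1.42e-04), *Cln8* (91.4%, FDR = 0.0267) and *Mfsd8* (91.4%, FDR = 0.0656) were lower in Cb-N. With DESeq2 the calls of *Cln3* (FDR = 0.128), *Cln8* (FDR = 0.119) and *Mfsd8* (FDR = 0.228) were lost, and that of *Mfsd8* held in 2 of 6 fits that left out 1 library, with an FDR of 0.105 to 0.230 in the others. The call of *Cln8* was also lost without Cb-N replicate 3 (FDR = 0.107), and that of *Mfsd8* without a filter on low counts (FDR = 0.123). With library totals in place of TMM both were lost, at log2 differences of -0.067 for *Cln8* (FDR = 0.243) and -0.066 for *Mfsd8* (FDR = 0.344), beside -0.13 for each with TMM. *Cln6* (log2 difference 0.014, 95% interval -0.15 to 0.18) and *Kctd7* (-0.022, -0.15 to 0.10) did not pass the test. The libraries of 7 members did not overlap between the control groups, against 78.2% of tested genes.

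**Figure D2:**
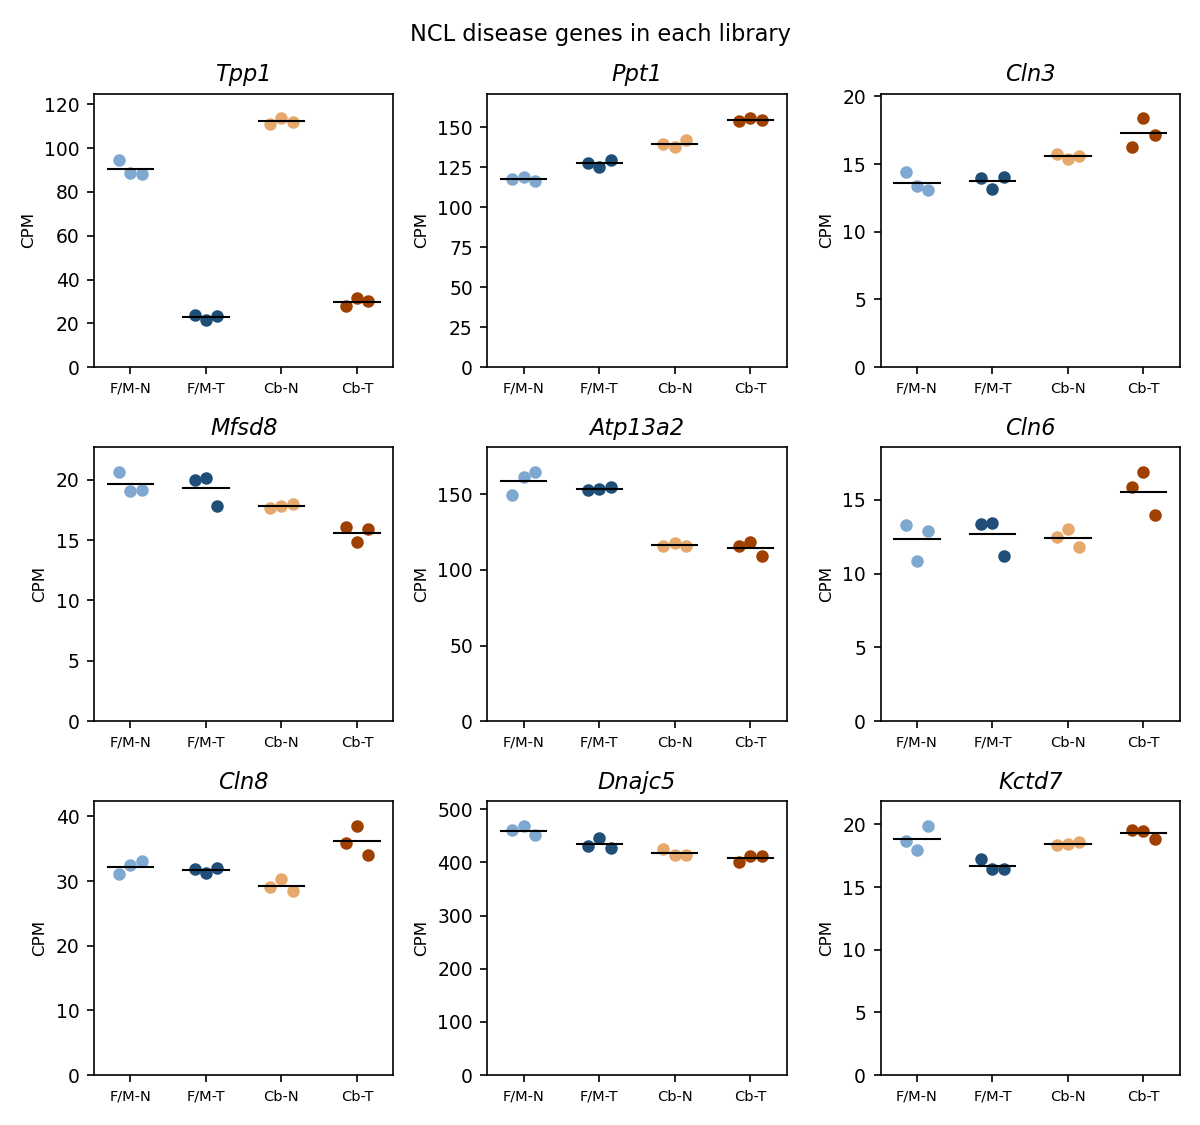
CPM (vertical axes from 0) of each member in the 12 libraries, 1 point per library, with a line at each group mean. *Tpp1* falls in both T groups, *Cln6* and *Cln8* are highest in Cb-T, and *Atp13a2* is lower in both Cb groups than in both F/M groups.

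The second question was how the members changed with the loss of *Tpp1*. In Cb, 6 of the 9 members passed FDR below 0.1, as did 57.6% of the 16382 genes tested. *Ppt1*, *Cln3*, *Cln6* and *Cln8* were higher in Cb-T, as were 29.8% of tested genes, and *Tpp1* and *Mfsd8* were lower, as were 27.9%. *Tpp1* alone was a DEG, against 11.2% of tested genes. In F/M, 2 members passed (27.2% of 16665 tested genes), *Ppt1* higher (12.8% of tested genes) and *Tpp1* lower (14.4%), and again *Tpp1* alone was a DEG (3.49% of tested genes). Leaving out *Tpp1*, the median log2 fold change of the members was 0.11 in Cb and 0.017 in F/M, beside 0.012 and 0.0078 over all tested genes. The median size of the change without *Tpp1* was 0.15 in Cb and 0.047 in F/M, beside 0.18 and 0.11 over all tested genes. Since the RNA came from whole tissue, a change in the number of cells that express a gene and a change in RNA per cell cannot be told apart in any of these values.

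*Tpp1*, the targeted gene, kept part of its reads in both tissues. In Cb it was at 111, 114 and 112 CPM in Cb-N and at 27.9, 31.4 and 30.1 CPM in Cb-T (29.8 ± 1.78 CPM, SD, n = 3). All Cb-T libraries were below all Cb-N libraries, at 26.6% of the control level (log2 fold change -1.91, SE 0.040, FDR = 5.72e-35). In F/M it was at 94.7, 88.5 and 88.1 CPM in F/M-N and at 23.9, 21.7 and 23.2 CPM in F/M-T (23.0 ± 1.11 CPM), or 26.1% of the control level (log2 fold change -1.94, SE 0.049, FDR = 2.74e-16). The 6 T libraries still held 526 to 771 counts of the gene each, and 1 value per gene does not show where along the gene these reads lie. The fold change in Cb and that in F/M differed by 0.048 on the log2 scale (95% interval -0.079 to 0.17, FDR of the interaction = 0.669).

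*Ppt1*, the thioesterase, was the only member besides *Tpp1* that passed in both tissues. It was at 139, 138 and 142 CPM in Cb-N and at 154, 155 and 154 CPM in Cb-T. It was at 118, 119 and 116 CPM in F/M-N and at 127, 125 and 129 CPM in F/M-T. In each tissue the lowest T library exceeded the highest N library. *Ppt1* rose 1.11-fold in Cb (log2 fold change 0.15, SE 0.028, FDR = 2.27e-05) and 1.11-fold in F/M (0.15, SE 0.033, FDR = 0.00234), with a difference between the tissues of 0.014 (95% interval -0.068 to 0.095).

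Of the endolysosomal membrane proteins, *Mfsd8*, a member of the major facilitator family, fell in Cb. It was at 17.7, 17.8 and 18.0 CPM in Cb-N and at 16.1, 14.9 and 15.9 CPM in Cb-T. The groups did not overlap, and Cb-T held 87.4% of the control level (log2 fold change -0.19, SE 0.068, FDR = 0.0150), a call kept in 6 of 6 fits that left out 1 library. In F/M it was at 20.6, 19.1 and 19.1 CPM in F/M-N and at 20.0, 20.1 and 17.9 CPM in F/M-T, which overlapped (log2 fold change 0.017, 95% interval -0.11 to 0.14, FDR = 0.884). *Cln3*, a membrane protein of late endosomes and lysosomes and the gene of the juvenile form, was at 15.7, 15.4 and 15.6 CPM in Cb-N and at 16.3, 18.4 and 17.2 CPM in Cb-T. These groups did not overlap, and *Cln3* passed narrowly at 1.11-fold higher (log2 fold change 0.15, SE 0.068, FDR = 0.0641). The call of *Cln3* was lost with DESeq2 (FDR = 0.291), without a filter on low counts (FDR = 0.116) and in 5 of 6 fits that left out 1 library (FDR of 0.103 to 0.254, the highest without Cb-T replicate 2). It held without Cb-T replicate 1 (FDR = 0.0384). In F/M the libraries of *Cln3* overlapped at 13.1 to 14.4 CPM in F/M-N and 13.2 to 14.1 CPM in F/M-T (FDR = 0.657). *Atp13a2* passed in neither tissue, with log2 fold changes of -0.023 in Cb (95% interval -0.084 to 0.039) and -0.0063 in F/M (-0.078 to 0.065). Its libraries ran from 109 to 118 CPM in both Cb groups together and from 149 to 164 CPM in both F/M groups, and the genotypes overlapped in both tissues.

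The endoplasmic reticulum proteins gave the largest increases among the members, and these passed in Cb and not in F/M. *Cln8*, a cargo receptor for lysosomal enzymes, was at 29.2, 30.3 and 28.5 CPM in Cb-N (29.3 ± 0.88 CPM) and at 35.9, 38.5 and 34.0 CPM in Cb-T (36.1 ± 2.21 CPM). All Cb-T libraries were above all Cb-N libraries and also above every F/M library, which ran from 31.1 to 33.1 CPM. *Cln8* rose 1.23-fold in Cb (log2 fold change 0.30, SE 0.051, FDR = 2.67e-06), and in F/M, where the genotypes overlapped, its log2 fold change was 0.018 (95% interval -0.081 to 0.12, FDR = 0.842). *Cln6*, which binds CLN8, was at 12.5, 13.0 and 11.8 CPM in Cb-N (12.4 ± 0.59 CPM) and at 15.9, 16.9 and 14.0 CPM in Cb-T (15.6 ± 1.47 CPM). The groups did not overlap, and *Cln6* rose 1.25-fold in Cb (log2 fold change 0.32, SE 0.077, FDR = 4.86e-04). In F/M it was at 13.3, 10.8 and 12.9 CPM in F/M-N and at 13.4, 13.4 and 11.2 CPM in F/M-T, the widest spread within a group of any member relative to its mean, and the groups overlapped (log2 fold change 0.074, 95% interval -0.10 to 0.25, FDR = 0.610). In the same Cb-T libraries the summed microglial, astrocyte, oligodendrocyte and *Hox* markers given above were higher and the granule cell and Purkinje cell markers lower than in Cb-N. In F/M-T the microglial and astrocyte markers were higher and the forebrain, general neuronal and olfactory bulb markers lower than in F/M-N. Their part in the changes of *Cln6*, *Cln8*, *Ppt1* and the other members was not tested.

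Neither cytosolic member passed in either tissue. *Dnajc5*, which keeps SNARE proteins folded at the synapse, was at 425, 414 and 413 CPM in Cb-N and at 400, 413 and 412 CPM in Cb-T (-0.030 on the log2 scale, 95% interval -0.076 to 0.015, FDR = 0.284). In F/M it was at 460, 467 and 451 CPM in F/M-N and at 431, 445 and 426 CPM in F/M-T (-0.042 on the log2 scale, 95% interval -0.095 to 0.012, FDR = 0.306). On this scale every T library was below every N library in both tissues, but on the scale of each tissue's own fit, which in F/M puts T 0.039 higher against N on the log2 scale, the genotypes overlapped in both. Without Cb-N replicate 3 *Dnajc5* passed in Cb (-0.047, FDR = 0.0508). *Kctd7* was at 18.3, 18.4 and 18.6 CPM in Cb-N and at 19.6, 19.5 and 18.8 CPM in Cb-T (0.065 on the log2 scale, 95% interval -0.057 to 0.19, FDR = 0.401). It was at 18.6, 17.9 and 19.8 CPM in F/M-N and at 17.2, 16.5 and 16.4 CPM in F/M-T (-0.13 on the log2 scale, 95% interval -0.26 to -0.0051, FDR = 0.163). The groups did not overlap in either tissue, with Cb-T above Cb-N and F/M-T below F/M-N. A single fit of the 12 libraries called *Kctd7* (log2 fold change -0.17, FDR = 0.0437) and *Dnajc5* (-0.075, FDR = 0.0278) lower in F/M-T, which made 4 members rather than 2. On the common scale the libraries of 8 members did not overlap between the genotypes in Cb (56.5% of tested genes) and those of 4 members in F/M (37.4%).

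**Figure D3:**
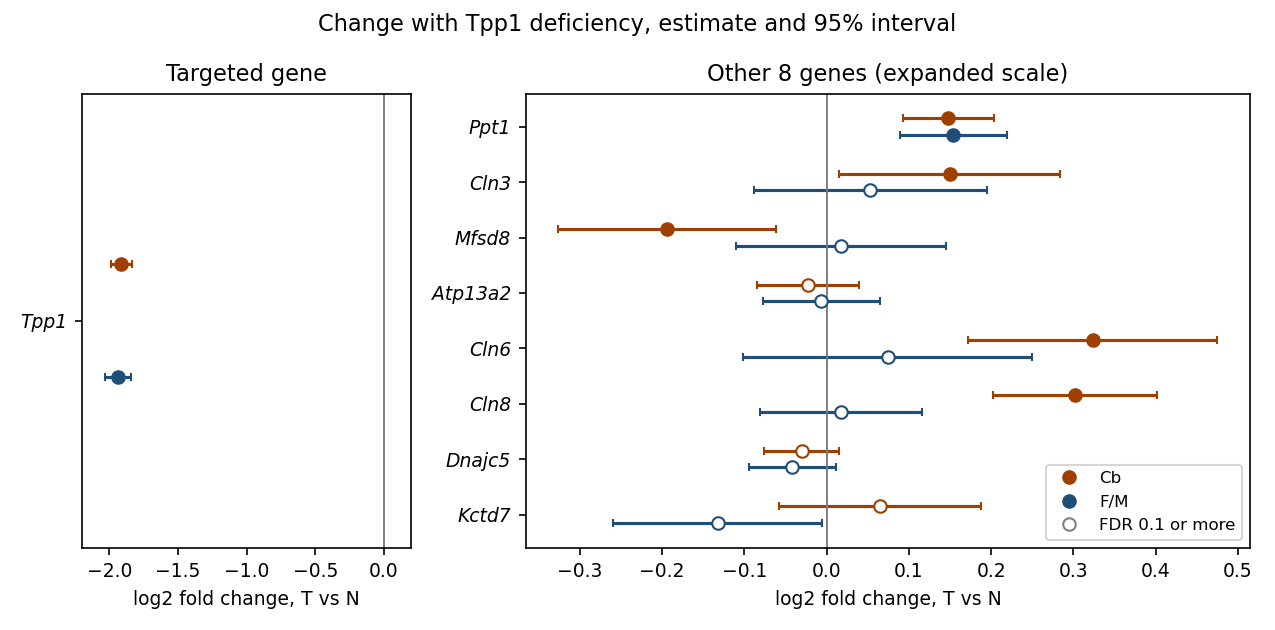
Log2 fold change of T against N in Cb and F/M with 95% intervals, for *Tpp1* (left, its own scale) and the other 8 members (right), where filled points passed FDR below 0.1. *Tpp1* is near -1.9 in both tissues, *Ppt1* is at 0.15 in both, and *Cln6* and *Cln8* are near 0.3 in Cb, beside 0.074 and 0.018 in F/M.

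Whether the change differed between the tissues was tested directly by the tissue-by-genotype interaction. At FDR below 0.1, 2 members differed, *Cln8* and *Kctd7*, as did 27.5% of the 17482 genes tested. By edgeR, DESeq2 and limma-voom 0 members also differed by at least 1.5-fold (7.61% of tested genes in the edgeR test), and 4 had an unadjusted p under 0.05, as did 32.6% of tested genes. *Cln8* changed more in Cb than in F/M by 0.30 on the log2 scale (SE 0.071, FDR = 0.00189), and this call held in 12 of 12 fits that left out 1 library. *Kctd7* differed by 0.22 (SE 0.085, FDR = 0.0661), with opposite signs in the tissues, although its change passed in neither. That call was lost with DESeq2 (FDR = 0.292), RLE factors (FDR = 0.106), no filter on low counts (FDR = 0.111) and a mean count of at least 50 (FDR = 0.125), and it held in 4 of 12 fits that left out 1 library, with an FDR of 0.102 to 0.259 in the others, the highest without Cb-T replicate 1. The differences of *Cln6* (0.27, 95% interval 0.029 to 0.51, FDR = 0.122) and *Mfsd8* (-0.19, -0.37 to -0.014, FDR = 0.138) did not pass, so that their changes, called in Cb and not in F/M, were not shown to differ between the tissues. Each of them passed in 3 of 12 fits that left out 1 library. *Cln6* was also called with the replicate block (FDR = 0.0661) and without a filter on low counts (FDR = 0.0863), and *Mfsd8* with RLE factors (FDR = 0.0891) and with a mean count of at least 50 (FDR = 0.0482).

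**Figure D4:**
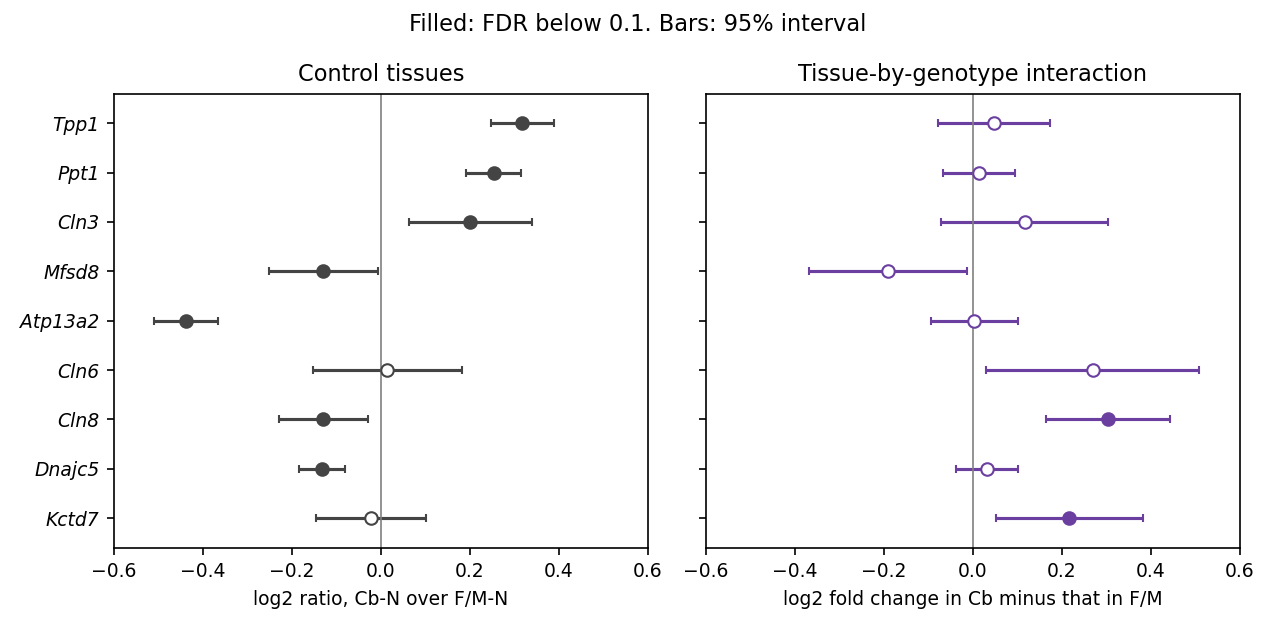
Left, log2 ratio of Cb-N to F/M-N, and right, the log2 fold change of T against N in Cb minus that in F/M, for the 9 members with 95% intervals, where filled points passed FDR below 0.1. *Atp13a2* is lowest on the left at -0.44, and *Cln8* is highest on the right at 0.30.

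Genes that work with these proteins were read beside them, by class. TPP1 is 1 of many lysosomal peptidases, and of the 13 others listed 12 rose in Cb and 12 in F/M, against 29.8% and 12.8% of tested genes called higher, with median log2 fold changes of 0.50 and 0.36. *Ctsd*, which encodes cathepsin D and is itself an NCL gene, was at 154, 158 and 159 CPM in Cb-N and at 415, 438 and 437 CPM in Cb-T. It was at 182, 166 and 186 CPM in F/M-N and at 316, 301 and 310 CPM in F/M-T. No T library reached down to the N libraries, and *Ctsd* rose 2.74-fold in Cb (FDR = 2.36e-37) and 1.78-fold in F/M (FDR = 1.65e-12), with a difference between the tissues of 0.64 on the log2 scale (SE 0.046, FDR = 4.57e-12). *Ctsf*, the other NCL cathepsin, was the peptidase that did not pass, with log2 fold changes of 0.013 in Cb (FDR = 0.784) and 0.10 in F/M (FDR = 0.103). *Ctsb* rose 1.39-fold in Cb and 1.20-fold in F/M, and *Ctsz* 2.13-fold and 1.79-fold. The summed microglial and astrocyte markers given above were higher in the same T libraries, as were the oligodendrocyte markers in Cb-T, and their part in these increases was not tested.

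Around PPT1, 11 thioesterase and palmitoyl transferase genes were listed. In Cb, 1 rose, 4 fell and 6 did not pass, and in F/M 2 fell and 9 did not pass, where 57.6% of all tested genes were called in Cb and 27.2% in F/M. The paralog *Ppt2*, a second lysosomal thioesterase, went against *Ppt1*. It was at 26.8, 25.7 and 26.2 CPM in Cb-N and at 18.2, 19.2 and 19.5 CPM in Cb-T, without overlap (log2 fold change -0.47, SE 0.058, FDR = 5.45e-09), and in F/M its log2 fold change was -0.16 (FDR = 0.171). *Zdhhc5* and *Zdhhc17*, which add palmitate to synaptic proteins, fell in both tissues, by 0.28 and 0.18 on the log2 scale in Cb and by 0.15 and 0.081 in F/M. The summed granule cell and Purkinje cell markers were lower in the same Cb-T libraries, where markers of neurons in general went both ways. In F/M-T the summed forebrain and general neuronal markers were lower. The part of these markers in the fall of *Zdhhc5* and *Zdhhc17* was not tested.

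The lysosomal membrane held 15 listed genes besides the members. In Cb 12 rose and 3 fell (*Mcoln1*, *Ctns* and *Clcn3*), and in F/M 8 rose and 7 did not pass, with medians of 0.12 and 0.13. Of all tested genes 29.8% were called higher and 27.9% lower in Cb, and 12.8% and 14.4% in F/M. The summed microglial and astrocyte markers were higher in the same T libraries. In Cb-T the oligodendrocyte markers were also higher, and the granule cell and Purkinje cell markers were lower. The part of all these markers in the changes of the listed genes was not tested. *Lamp1* and *Lamp2*, the most abundant proteins of that membrane, rose by 0.37 and 0.41 on the log2 scale in Cb and by 0.25 and 0.35 in F/M. *Cd63*, a tetraspanin, rose most in both tissues, 1.98-fold in Cb (FDR = 6.32e-19) and 1.51-fold in F/M (FDR = 7.32e-07). *Mfsd1*, a transporter of the same superfamily as MFSD8, and its partner *Glmp* rose in both tissues, by 0.45 (FDR = 1.92e-09) and 0.22 (FDR = 2.42e-05) on the log2 scale in Cb and by 0.27 (FDR = 0.00177) and 0.22 (FDR = 0.00387) in F/M. Of the 4 P5-type ATPases other than *Atp13a2*, *Atp13a4* and *Atp13a5* rose and *Atp13a1* and *Atp13a3* fell in Cb, while in F/M *Atp13a4* rose, *Atp13a3* fell and 2 did not pass.

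CLN6 and CLN8 feed enzymes into the mannose 6-phosphate route, for which 6 genes were listed. In Cb 3 rose, 1 fell and 2 did not pass, and in F/M the counts were again 3, 1 and 2, beside 57.6% of all tested genes called in Cb and 27.2% in F/M. *M6pr*, the smaller of the mannose 6-phosphate receptors, rose by 0.13 in Cb (FDR = 0.00106) and by 0.12 in F/M (FDR = 0.0340) on the log2 scale. The larger receptor *Igf2r* fell by 0.099 in Cb (FDR = 0.0135) and had a log2 fold change of -0.083 in F/M (FDR = 0.204). *Sort1*, the alternative sorting receptor, rose by 0.069 in Cb (FDR = 0.0191) and fell by 0.15 in F/M (FDR = 5.68e-04). *Gnptab*, which encodes the enzyme that starts the tag, passed in neither tissue.

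Of the 8 genes listed with CSP-alpha, 6 were tested, and its paralogs *Dnajc5b* and *Dnajc5g* did not pass the filter on low counts. In Cb 2 rose and 3 fell (57.6% of all tested genes called), and in F/M 4 fell (27.2%). *Hspa8*, the Hsc70 partner of CSP-alpha, rose by 0.069 on the log2 scale in Cb (FDR = 0.0206) and had a log2 fold change of 0.064 in F/M (FDR = 0.133), and *Sgta*, the other partner, passed in neither. *Snap25* and *Dnm1*, which encode the CSP-alpha clients SNAP-25 and dynamin 1, and *Vamp2*, a SNARE partner of SNAP-25, fell in both tissues, by 0.22, 0.27 and 0.18 in Cb and by 0.083, 0.17 and 0.15 in F/M on the log2 scale. In the same Cb-T libraries the granule cell markers (median log2 fold change -0.32) and Purkinje cell markers (-0.21) were lower, and of the 8 markers of neurons in general 3 rose and 3 fell in Cb. In F/M-T the summed forebrain and general neuronal markers given above were lower than in F/M-N. *Syt1* and *Rbfox3*, a synaptic vesicle and a nuclear marker of neurons, were the pair that fell in both tissues, by 0.26 and 0.38 in Cb and by 0.13 and 0.098 in F/M on the log2 scale. *Tubb3*, *Nefl* and *Nefm* were the 3 that rose in Cb, by 0.34, 0.31 and 0.33, and in F/M 6 of the 8 did not pass. The part of these markers in the fall of *Snap25*, *Dnm1* and *Vamp2* was not tested. *Stx1a* rose 2.08-fold in Cb (FDR = 4.46e-07) from a very low level, 2.82, 1.55 and 1.99 CPM in Cb-N against 4.16, 4.56 and 4.57 CPM in Cb-T, and fell by 0.21 on the log2 scale in F/M, where it was at 199 to 211 CPM in F/M-N and 169 to 179 CPM in F/M-T. In the same Cb-T libraries the summed *Hox* markers given above were higher than in Cb-N. The summed forebrain markers overlapped, at 9.22 to 9.95 CPM in Cb-N and 8.41 to 10.5 CPM in Cb-T. The part of unlike tissue content in the rise of *Stx1a* was not tested.

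For KCTD7, 7 genes of cullin 3 and related KCTD proteins were listed, of which 2 rose, 3 fell and 2 did not pass in Cb, and 2 fell and 5 did not pass in F/M, where 57.6% of all tested genes were called in Cb and 27.2% in F/M. *Kctd12*, an auxiliary subunit of GABA-B receptors, fell in both tissues, to 78.4% of control in Cb and 87.4% in F/M, and *Cul3* fell in Cb (log2 fold change -0.13, FDR = 7.85e-05). Among the MiT/TFE factors, which bind the CLEAR element, 3 of 4 were tested for a change, and binding to the *Cln3* stretch was not measured. *Tfeb* fell in Cb, from 14.5, 15.5 and 14.5 CPM in Cb-N to 13.5, 13.4 and 12.5 CPM in Cb-T (-0.17 on the log2 scale, SE 0.074, FDR = 0.0490), and had a log2 fold change of 0.12 in F/M (FDR = 0.392), with a difference between the tissues of -0.27 (FDR of the interaction = 0.0846). *Tfe3* and *Mitf* passed in neither tissue.

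**Figure D5:**
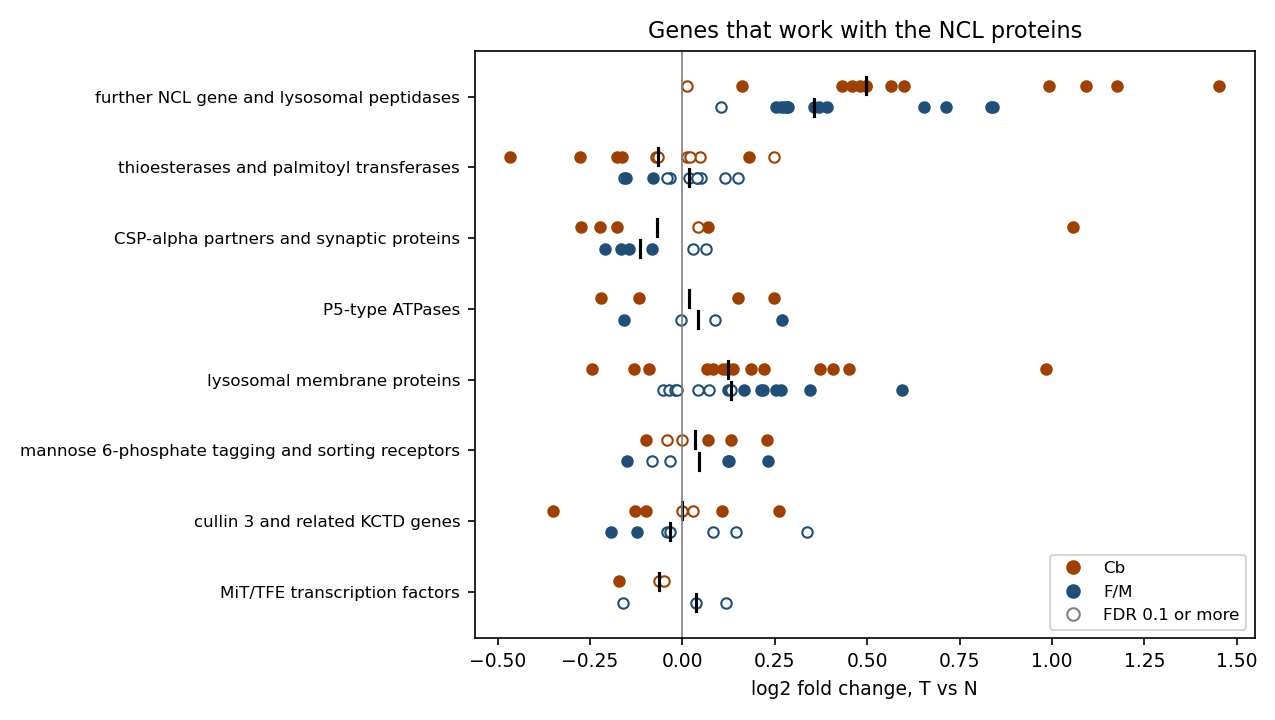
Log2 fold change of T against N for each gene of the 8 lists in Cb and F/M, 1 point per tested gene, filled where FDR was below 0.1, with a black line at each list's median. The peptidases have the highest medians, 0.50 in Cb and 0.36 in F/M, and the medians of the other lists lie between -0.11 and 0.13.

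The genes whose levels ran most alike with each member other than *Tpp1* over the 12 libraries were found by Pearson's r of log2 CPM among 17482 genes. All points share the same 4 groups, so that these values describe the group pattern. The closest were *Acad11* for *Ppt1* (0.99), *Srebf2* for *Atp13a2* (0.99), *Aco1* for *Cln3* (0.99) and *Kdm5b* for *Dnajc5* (0.98). Lower values were found for *Mfsd8* with *Lrrn3* (0.95), *Cln8* with *Bak1* (0.93), *Cln6* with *Tmem189* (0.91) and *Kctd7* with *Crebl2* (0.91).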

How the data were processed

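RNA of F/M and Cb of 4-month-old T and N mice was extracted with TRIzol and RNeasy columns and read as 12 stranded poly(A) libraries. Per the labels, the authors aligned the reads to mm10 with STAR 2.5.1b and counted reads per gene with featureCounts 1.26.1. The deposited values are raw counts per gene, not normalized, 1 table per library. The strand setting, the treatment of reads with several alignments and the annotation release are not given in the sources used here, and they decide how reads of overlapping genes were assigned.

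From these counts, each comparison was fitted on its 6 libraries (the interaction on 12) in R 4.3.3 with edgeR 4.0.16: filterByExpr (minimum count 10, minimum total 15), TMM, glmQLFit and glmQLFTest, with Benjamini-Hochberg adjustment over all tested genes. Every FDR is from this test unless another is named. Intervals of 95% are the estimate ± 1.96 SE. RPKM divides the 12-library TMM CPM by the union of GENCODE exons. The floor of 3 counts covers counting error only. The main fits, the replicate block, the single fit of 12 libraries and limma-voom were first tested on simulated data with known changes. DESeq2 was tested in this way for Cb only, and the other alternatives were not. Replicate pairs differed by 1.27 to 3.37 times the sampling noise (chi-square per degree of freedom, 12 pairs).

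The members and lists were chosen with earlier results of these data known. The rule for names took all members, a few set genes of each list, in each list up to 3 genes with the smallest FDR in a T against N comparison, genes that overlap a member, and the genes most alike (log2 CPM, prior count 2), which for *Tpp1* are not reported here. *Atp13a5*, *Ctns*, *Clcn3*, *Mfsd1*, *Glmp*, *Gnptab*, *Syt1*, *Rbfox3*, *Tubb3*, *Nefl*, *Nefm*, *Dnajc5b* and *Dnajc5g* fall outside it and were named after their values were seen, as were the *Hox* genes at 0. Alternatives were DESeq2 1.42.0, limma-voom (limma 3.58.1), RLE factors, library totals, no filter, a mean count of at least 50, a single fit of 12 libraries, the replicate block, FDR below 0.05 and leaving out each library.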

Additional observations from a re-analysis of the deposited data

Results flagged for a closer look

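For 2 members the change with *Tpp1* deficiency differed between Cb and F/M by the tissue-by-genotype interaction of edgeR. The log2 fold change of *Cln8* was 0.30 higher in Cb than in F/M (FDR = 0.00189), and its Cb-T libraries were above all other libraries, 3 of 3. That of *Kctd7* was 0.22 higher in Cb than in F/M (FDR = 0.0661), with 3 of 3 Cb-T libraries above the Cb-N libraries and 3 of 3 F/M-T libraries below the F/M-N libraries. Over all alternatives the FDR of *Cln8* stayed below 0.1, whereas that of *Kctd7* did not. What lies behind either difference was not tested.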

How the results depend on the processing

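The number of DEG among the members, 1 in Cb, 1 in F/M, 0 between the control tissues and 0 in the interaction, was the same under every alternative run. The number at FDR below 0.1 moved in Cb from 6 to 5 with DESeq2, without a filter and at FDR below 0.05, in F/M from 2 to 4 with a single fit of 12 libraries, between the control tissues from 7 to 4 with DESeq2, to 5 with library totals and to 6 without a filter and at FDR below 0.05, and in the interaction from 2 to 1 with DESeq2 and to 1 at FDR below 0.05. With RLE factors, no filter and a mean count of at least 50 the interaction count stayed at 2, but *Kctd7* was lost and *Cln6* (no filter) or *Mfsd8* was gained. Leaving out 1 library gave 5 to 6 in Cb, 2 in F/M, 5 to 7 between the control tissues and 1 to 3 in the interaction. No library was paired by its number in the main fits. For same-numbered libraries of the 2 tissues, deviations from group means correlated at 0.00077 to 0.052 in N and -0.0025 to 0.019 in T. With 3 libraries per group these values cannot show which libraries came from the same mouse. With the replicate block the counts were 6, 2, 7 and 3.

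Signs turned only for values that had not passed the test. With library totals alone these were *Atp13a2* (0.020) and *Dnajc5* (0.012) in Cb, *Atp13a2* in F/M (0.014) and *Kctd7* between the control tissues (0.041). With a single fit of 12 libraries they were *Mfsd8* (-0.016) and *Cln8* (-0.015) in F/M. In the interaction they were *Ppt1* with DESeq2 (-0.010), RLE factors (-0.011) and a mean count of at least 50 (-0.031), *Atp13a2* with the same settings (-0.021, -0.022 and -0.042) and *Dnajc5* with the last (-0.015). Leaving out 1 library, signs turned within -0.039 to 0.0078 (*Atp13a2* in Cb), -0.049 to 0.022 (*Atp13a2*), -0.0092 to 0.068 (*Mfsd8*), -0.0093 to 0.15 (*Cln6*) and -0.0091 to 0.039 (*Cln8*) in F/M, within -0.070 to 0.069 (*Cln6*) and -0.054 to 0.014 (*Kctd7*) between the control tissues, and within -0.013 to 0.077 (*Tpp1*), -0.039 to 0.029 (*Ppt1*), -0.062 to 0.048 (*Atp13a2*) and -0.029 to 0.050 (*Dnajc5*) in the interaction. The cause was not tested. Library totals moved the median of all genes by up to 0.063.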
